A study of Mus musculus with 8 samples.

Results

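The proprotein convertases described here are 8 genes, *Furin*, *Pcsk1*, *Pcsk2*, *Pcsk4*, *Pcsk5*, *Pcsk6*, *Pcsk7* and *Mbtps1*, found by symbol among the 55357 genes of the deposited table. The family was chosen by the lower level of *Pcsk4* transcripts in *Mgat2* cKO than in control germ cells of these same libraries, and the other convertases were added as relatives of *Pcsk4*. The genotype difference of *Pcsk4* is therefore a description and carries no test. The other members were taken as relatives by name, and what the fit over all genes gave for them is stated beside their values. Of the 8 genes, 6 passed the filter on low expression, set on TPM (transcripts per 1000000 transcripts), which had to reach 1 in at least 1 sample. This filter left 20187 genes for testing. *Pcsk1* and *Pcsk2* did not pass it.

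Proprotein convertases are serine proteases of the subtilisin type that travel through the secretory pathway and cut inactive precursors into active hormones, growth factors, receptors, adhesion proteins and enzymes. Most of them cut after pairs or clusters of basic residues. FURIN, PCSK5, PCSK6 and PCSK7 act in many tissues, PCSK1 and PCSK2 work in the granules of neuroendocrine cells, and PCSK4 is best known from testicular germ cells, where it is needed for normal fertility of male mice. MBTPS1, also called site-1 protease, cuts at other residues and releases membrane-bound transcription factors of sterol and stress responses in the Golgi.

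The members share a catalytic serine, and the coding sequence around its codon was compared with that of *Pcsk4* over this short window alone. The 33 bases below run 5′ to 3′ on the coding strand of the canonical transcript of each gene in the GENCODE annotation of GRCm39, and the capitals mark the serine codon.
Pcsk4: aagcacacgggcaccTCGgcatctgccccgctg
Furin: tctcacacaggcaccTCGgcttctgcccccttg
Pcsk1: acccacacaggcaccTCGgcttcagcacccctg
Pcsk2: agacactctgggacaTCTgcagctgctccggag
Pcsk5: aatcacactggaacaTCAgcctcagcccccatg
Pcsk6: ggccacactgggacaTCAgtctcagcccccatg
Pcsk7: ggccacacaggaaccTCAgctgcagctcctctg
Mbtps1: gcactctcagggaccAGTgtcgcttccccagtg
In this window *Furin* and *Pcsk1* shared 26 of 33 bases with *Pcsk4*, and *Mbtps1* shared the fewest, 17 of 33. *Pcsk5* shared 24, *Pcsk2* and *Pcsk7* 22 each, and *Pcsk6* 21. The window lies within a single coding exon in every member, exon 9 in *Pcsk1*, *Pcsk4*, *Pcsk5* and *Pcsk6* and exon 10 in the other four. On the reverse strand the serine codon is at chr10:80159738-80159740 in *Pcsk4*, chr7:80042682-80042684 in *Furin*, chr19:17619907-17619909 in *Pcsk5* and chr8:120260104-120260106 in *Mbtps1*. On the forward strand it is at chr13:75263404-75263406 in *Pcsk1*, chr2:143637912-143637914 in *Pcsk2*, chr7:65612700-65612702 in *Pcsk6* and chr9:45830120-45830122 in *Pcsk7*. The coding sequence of *Pcsk4* has 655 codons, against 793 in *Furin* and 1877 in *Pcsk5*, the longest of the family.

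RNA-seq covered germ cells of 8 C57BL/6 males aged 15 days, with a library from each mouse. Of these, 4 had the genotype *Mgat2*[F/F] (control). The other 4 were *Mgat2*[F/F]:*Stra8*-iCre (cKO). All 8 mice carried floxed alleles of *Mgat2*, the gene of a Golgi enzyme that adds the sugar GlcNAc to make biantennary complex N-glycans. The cKO mice in addition carried the *Stra8*-iCre transgene, which is active from spermatogonia onward, so the somatic cells of the testis keep *Mgat2*, and effects of the Cre transgene and of the deletion cannot be told apart. The cells were freed from tubules by enzymes and filtered, without sorting.

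Library totals ran from 12584726 to 15907505 expected counts, and a signal of 3 counts, taken as the floor, was worth 0.189 to 0.238 CPM (counts per 1000000 counts). This floor covers counting error only. *Mgat2* itself was at 31.8 to 69.8 CPM in control and 16.03 to 37.6 CPM in cKO samples, and the groups overlapped (log2 fold change -1.05 with a standard error of 0.36, adjusted p = 0.47 by the quasi-likelihood test of edgeR and 0.025 by DESeq2). Germ cell markers were abundant, with *Sycp3*, a protein of the synaptonemal complex, at a mean of 442 TPM over the 8 samples. Markers of Sertoli cells, the somatic cells of the tubule, were abundant as well, and their summed level over 8 genes was 4717 to 5762 TPM in control and 4818 to 5777 TPM in cKO samples. *Clu* alone was at a mean of 4255 TPM. The fraction labelled germ cells therefore held much RNA of Sertoli markers, and in such bulk samples fewer cells of a type and less RNA per cell cannot be told apart.

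*Pcsk4* (ENSMUSG00000020131, chr10:80157117-80165364 of GRCm39, reverse strand) was counted 350, 249, 357 and 218 times in replicates 1 to 4 of the control group. In cKO replicates 1 to 4 it was counted 132, 108, 106 and 111 times. After normalization with edgeR's trimmed mean of M-values (TMM), these counts were worth 23.8, 16.1, 22.6 and 17.02 CPM in control and 8.76, 6.99, 7.40 and 7.87 CPM in cKO germ cells. The lowest control thus lay well above the highest cKO sample, and the 4 cKO samples lay close to each other. Control replicates 1 and 3 were the high pair of their group, and the coefficient of variation was 19.4% in control against 9.83% in cKO. The fitted log2 fold change was -1.36 (standard error 0.17, 95% interval -1.72 to -0.99), which is a level 2.56-fold lower in cKO. With replicate 1 of both genotypes left out it was -1.33. This is the difference by which the family was chosen.

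**Figure D1:**
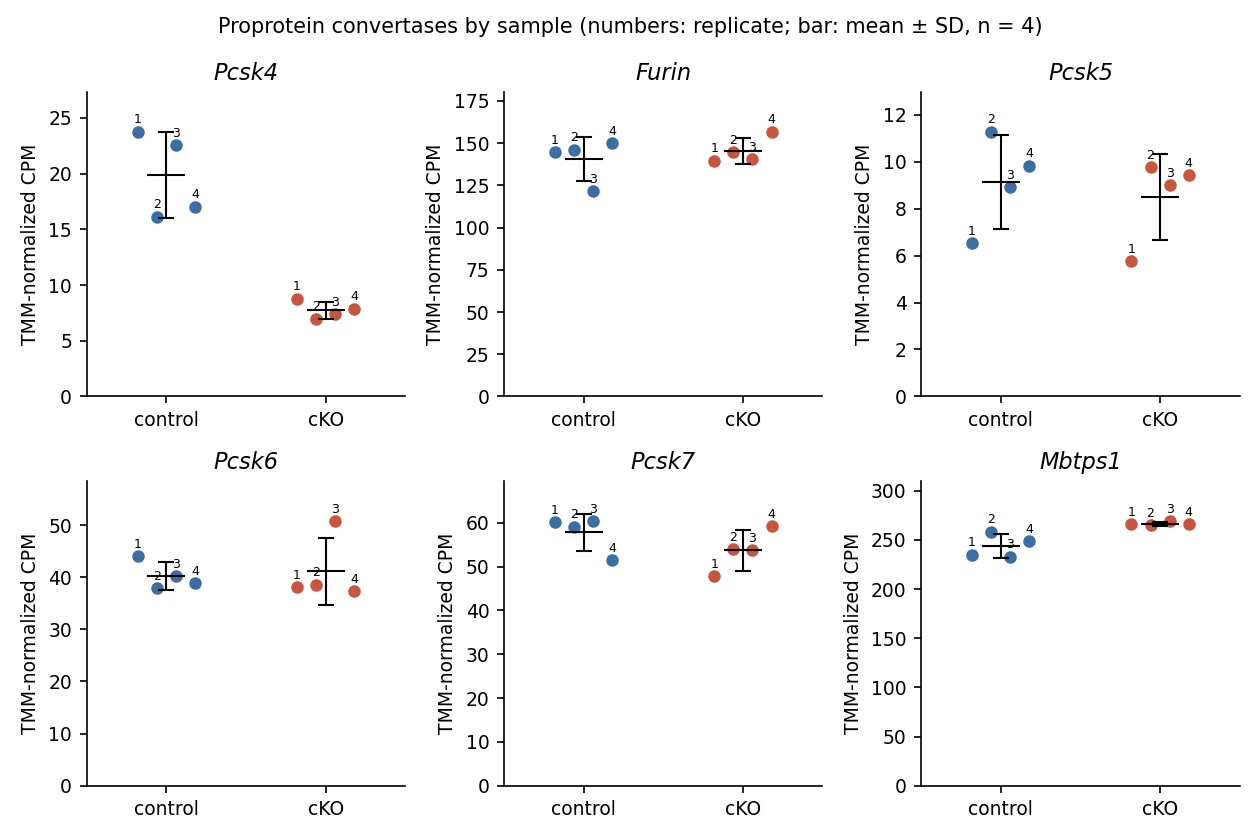
TMM-normalized CPM (vertical axes, from 0) of the 6 convertases tested, in 4 control and 4 cKO samples. Points are samples numbered by replicate and bars are mean ± SD. *Pcsk4* was at 16.1 to 23.8 CPM in control and 6.99 to 8.76 CPM in cKO samples, *Mbtps1* was slightly higher in every cKO sample, and the groups of the other 4 genes overlapped.

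No exon of *Pcsk4* overlaps another annotated gene. *Reep6*, which encodes a protein of the endoplasmic reticulum membrane, starts 422 bp from *Pcsk4* on the opposite strand and runs away from it (chr10:80165787-80172275, forward strand). *Reep6* was at 28.7, 20.9, 19.7 and 22.4 CPM in control and 27.2, 13.8, 16.96 and 18.01 CPM in cKO replicates 1 to 4. Its groups overlapped, and replicate 1 was the highest sample of both genotypes (log2 fold change -0.27, standard error 0.20, 95% interval -0.71 to 0.17, adjusted p = 0.71 from edgeR). On the other side *2310011J03Rik* lies 722 bp from *Pcsk4* and starts at the end that faces it (chr10:80154041-80156394, reverse strand). Its level was 23.2 ± 4.20 CPM in control and 21.3 ± 1.35 CPM in cKO (SD, n = 4 each), also with overlapping groups (log2 fold change -0.12, adjusted p = 0.81 from edgeR).

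**Figure D2:**
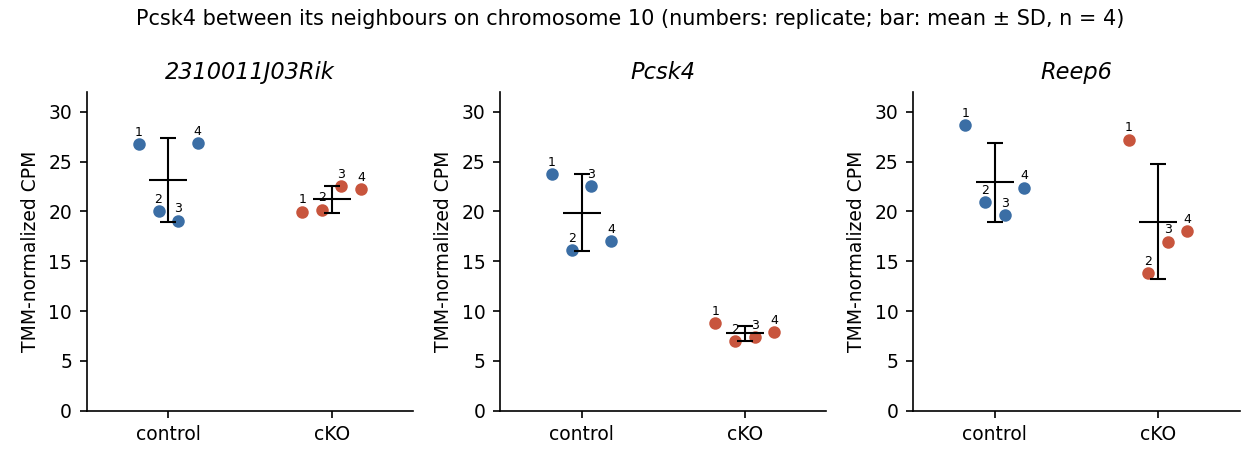
TMM-normalized CPM (vertical axes, from 0 to the same maximum) of *2310011J03Rik*, *Pcsk4* and *Reep6* in 4 control and 4 cKO samples. Points are samples numbered by replicate and bars are mean ± SD. The groups are apart in *Pcsk4* and overlap in both neighbours, where *Reep6* in cKO replicate 1 reached 27.2 CPM.

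In the edgeR fit 8 of the 20187 genes tested (0.0396%) passed an adjusted p of 0.05 between genotypes, and *Pcsk4*, chosen for its difference, was among them. None of the 5 other convertases tested passed it. At an unadjusted p under 0.05, which 8.9% of all genes reached, the count among these 5 was 0 as well. DESeq2 called 1.86% of the genes for which it gave an adjusted p, 1.75% lower and 0.111% higher in cKO, and 0 of these 5 convertases.

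The convertases of the general secretory pathway had similar levels in both genotypes. *Furin* (ENSMUSG00000030530), the protease of the trans-Golgi network and the prototype of the family, was at 144.8, 146.1, 121.6 and 150.2 CPM in control replicates 1 to 4. In cKO replicates 1 to 4 it was at 139.6, 144.8, 140.4 and 156.8 CPM. Control replicate 3 was the low sample, and without it the sign of the small difference turned. The log2 fold change of *Furin* was 0.05 (standard error 0.08, 95% interval -0.13 to 0.22, adjusted p = 0.89 from edgeR).
*Pcsk7* (ENSMUSG00000035382), a membrane-bound convertase that is expressed widely, was at 60.2, 59.1, 60.4 and 51.5 CPM in control and 47.9, 54.0, 53.8 and 59.3 CPM in cKO replicates 1 to 4. The ranges overlapped, mainly through control replicate 4, the low sample of its group (log2 fold change -0.10, 95% interval -0.31 to 0.10, adjusted p = 0.76 from edgeR). Of its annotated exon bases 8.81% overlap *Rnf214* and 2.23% overlap *Tagln*, both on the opposite strand, and its expected counts were not whole numbers in 6 of the 8 samples. Reads in the overlaps cannot be assigned by strand in these libraries. *Rnf214* was at 58.9 ± 2.49 and 60.3 ± 3.96 CPM (SD, n = 4 each) in control and cKO, and *Tagln*, an actin-binding gene of smooth muscle, at 54.4 ± 3.50 and 56.7 ± 10.6 CPM.
*Pcsk6* (ENSMUSG00000030513), a secreted convertase that binds to the cell surface and processes growth factors of the TGF-β family, was at 44.0, 37.9, 40.2 and 38.8 CPM in control. In cKO germ cells it was at 38.1, 38.6, 50.8 and 37.3 CPM. A single sample, cKO replicate 3, stood above the rest, and without it the log2 fold change turned from 0.03 to -0.083 (95% interval of the former -0.21 to 0.28, adjusted p = 0.96 from edgeR).
*Pcsk5* (ENSMUSG00000024713), its close relative, was at 6.52, 11.3, 8.91 and 9.84 CPM in control and 5.78, 9.77, 9.004 and 9.43 CPM in cKO replicates 1 to 4. Replicate 1 was the lowest sample in both genotypes. The log2 fold change was -0.10 with a wide 95% interval, from -0.58 to 0.37 (adjusted p = 0.93 from edgeR), and its sign turned without control replicate 2 or without cKO replicate 1.

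*Mbtps1* (ENSMUSG00000031835) was the member with the most transcripts and the only other member whose genotypes did not overlap. It was at 234.9, 258.2, 233.0 and 248.6 CPM in control and 265.7, 265.0, 269.2 and 265.8 CPM in cKO replicates 1 to 4. All 4 cKO samples were within a few CPM of each other, just above the highest control. The fitted level was 1.09-fold higher in cKO (log2 fold change 0.13, standard error 0.06, 95% interval -0.01 to 0.26), and the difference did not pass the threshold (adjusted p = 0.57 from edgeR). Groups apart in this way were found in 5.5% of all genes tested, 3.03% with cKO below and 2.47% with cKO above control.

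Other members share fewer exon bases with annotated genes of the table. *Furin* shares 118 bases with *Gm44851*, and *Pcsk6* shares 196 with *Gm20684* and 156 with *Gm45213*. *Pcsk2* shares 260 with *Pcsk2os1* and 99 with *Pcsk2os2*. Of these 5 genes *Gm20684* alone was tested, and it was below the floor of 3 counts in every sample.

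The neuroendocrine convertases were at the edge of detection. *Pcsk1* (ENSMUSG00000021587), which opens prohormones such as proinsulin, had 0, 5, 4 and 0 counts in control and 0, 0, 2 and 2 counts in cKO replicates 1 to 4. *Pcsk2* (ENSMUSG00000027419), which completes their cleavage, had 5, 5, 3 and 6 counts in control and 2, 3, 1 and 0 counts in cKO samples. At a floor of 3 counts, *Pcsk1* was above it in 2 control samples and *Pcsk2* in 3 control samples, and neither was above it in any cKO sample. The lowest control and the highest cKO value of *Pcsk2* were both 3 counts, and those of *Pcsk1* overlapped. Neither gene was tested, and no fold change is given at these counts. The highest value of either was 0.18 TPM.

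**Figure D3:**
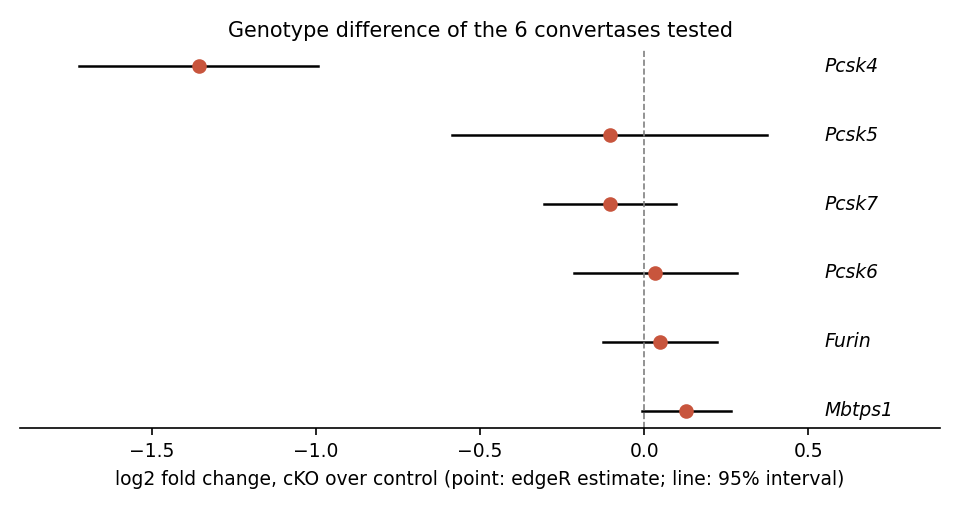
Log2 fold change, cKO over control (horizontal axis), of the 6 convertases tested, with points for the edgeR estimate over 8 samples and lines for its 95% interval. *Pcsk4* lies at -1.36 and the intervals of the other 5 genes include 0, with *Mbtps1* at 0.13 and *Pcsk5* having the widest.

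Levels of different genes were compared in TPM, which is scaled for transcript length. The order of the median over 8 samples was *Mbtps1* (115 TPM), *Furin* (56.1), *Pcsk7* (35.5), *Pcsk6* (16.03), *Pcsk4* (12.03), *Pcsk5* (2.86), *Pcsk2* (0.07) and *Pcsk1* (0.02). Of the 7 pairs of neighbours in this order, 5 kept the same order in every sample. *Mbtps1* exceeded *Furin* by 1.83 to 2.32-fold, *Furin* exceeded *Pcsk7* by 1.31 to 1.79-fold, and *Pcsk7* exceeded *Pcsk6* by 1.83 to 2.77-fold. *Pcsk5* was above *Pcsk2* in every sample as well. The order was set on these 8 samples, so it is a description with no test. *Pcsk2* was above *Pcsk1* in 5 of 8 samples, and these neighbours had no fixed order.

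The place of *Pcsk4* in the order differed between the genotypes. In TPM it was at 18.69, 15.55, 22.01 and 15.45 in control replicates 1 to 4, beside 17.12, 15.53, 16.83 and 16.19 for *Pcsk6*. It was thus above *Pcsk6* in 3 of 4 control samples, by almost nothing in replicate 2. In the cKO samples *Pcsk4* was at 6.16, 6.09, 6.39 and 8.61 TPM, below *Pcsk6* in 4 of 4 and above *Pcsk5* in every sample. As with the other neighbours in the order, no test is given for the pairs that include *Pcsk4*.
TPM depends on the mix of transcripts that RSEM assigns to a gene, since it divides by their mean effective length. Relative to control replicate 1, the effective length implied for *Pcsk4* ran from 0.751 in cKO replicate 4 to 1.11 in cKO replicate 1, a 1.48-fold range where the median gene had a range of 1.13-fold. The other 5 convertases tested had ranges of 1.1 to 1.2-fold. The mean implied length of *Pcsk4* was 0.899 in control and 0.928 in cKO samples, so the genotypes differed less than the samples did.

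**Figure D4:**
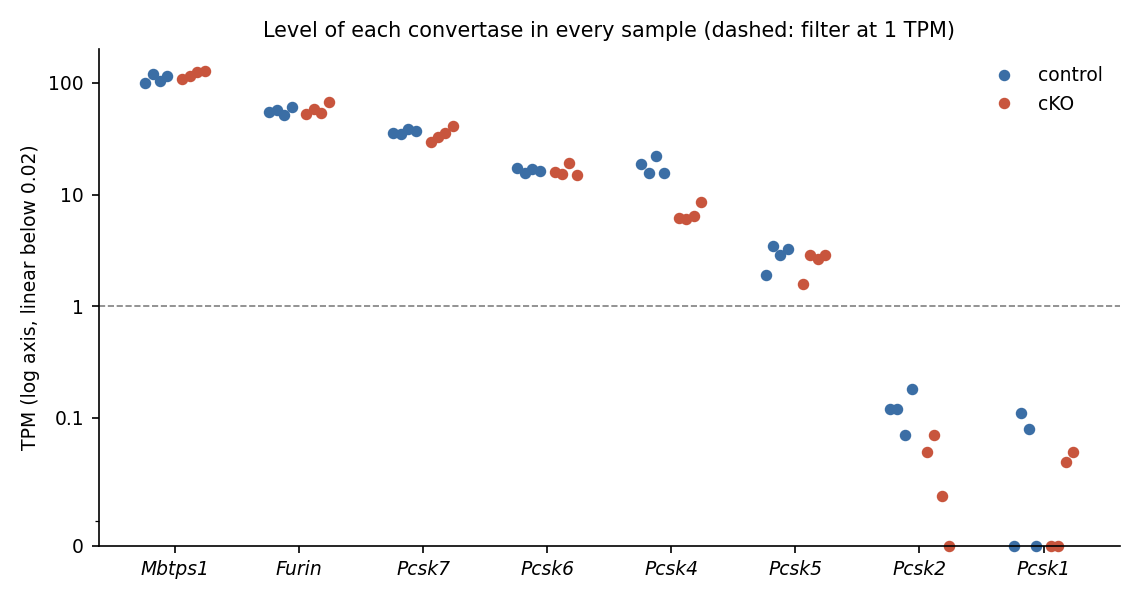
TPM (log axis, linear below 0.02) of the 8 convertases in 4 control and 4 cKO samples, in the order of the median over all samples. Points are samples and the dashed line is the filter of 1 TPM. The genotypes separate in *Pcsk4*, and *Pcsk2* and *Pcsk1* reach at most 0.18 TPM in any sample.

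*Pcsk4* was a minor part of the convertase transcripts in both genotypes. Its share of the summed TPM of the 8 genes was 8.16%, 6.28%, 9.32% and 6.27% in control and 2.88%, 2.63%, 2.65% and 3.27% in cKO replicates 1 to 4. The sum of all 8 was 239.8 ± 8.80 TPM in control and 237.4 ± 20.5 TPM in cKO (SD, n = 4 each), a difference far smaller than the spread between cKO samples. *Mbtps1* had the largest share, from 43.9% to 48.7% in control and from 48.7% to 51.5% in cKO samples. With counts per kilobase of annotated exon in place of TPM, the share of *Pcsk4* was 10.3% ± 1.95 in control and 4.15% ± 0.494 in cKO (SD, n = 4 each).

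Since PCSK4 is a germ cell protease, its values stand here beside markers of germ cell stages. The summed level of 8 markers of pachytene spermatocytes, cells in the long middle stage of meiotic prophase, was 2965, 1216, 1530 and 959.2 TPM in control replicates 1 to 4. In cKO replicates 1 to 4 it was 983, 529.6, 533.2 and 508.7 TPM. Replicate 1 was the highest of both genotypes, and the sum in cKO replicate 1 was above that in control replicate 4. Of these 8 markers, 7 had a negative log2 fold change, with a median of -1.23 over the 8 against 0.01 over all genes tested. EdgeR called 0 of them, and 3 (*Piwil1*, *Ybx2* and *Hspa2*) had an unadjusted p under 0.05. DESeq2 called *Piwil1*. With a block for replicate number, which pairs no mice in the labels, edgeR called *Piwil1*, *Ldhc*, *Hspa2* and *Pgk2*, all lower in cKO. *Piwil1*, which encodes a protein of the piRNA pathway, was at 168.4 to 645.5 CPM in control and 43.5 to 154.7 CPM in cKO samples, with the groups apart.
Of 8 markers of round spermatids, *Tnp2* and *Prm1*, which package sperm chromatin, were listed at 0 in all 8 samples. *Dbil5* and *Acr*, the gene of the acrosomal protease acrosin, were detected in every sample, at 11.7 to 44.3 TPM and 6.83 to 26.1 TPM in control. The sum of the 8 spermatid markers was 24.1 to 71.9 TPM in control and 11.7 to 27.7 TPM in cKO samples. In CPM, *Acr* was at 20.2, 7.26, 11.1 and 5.15 CPM in control and 6.51, 1.75, 2.51 and 0.922 CPM in cKO replicates 1 to 4, so that cKO replicate 1 lay above control replicate 4. Of the 4 spermatid markers tested, 3 had a negative log2 fold change. *Tnp1* was positive (1.71), with 0, 1, 0 and 2 counts in control and 0, 0, 4 and 7 counts in cKO samples. EdgeR called 0 of the 4, *Acr* had an unadjusted p under 0.05, and DESeq2 called *Acr*. With the replicate block edgeR called *Acr* and *Dbil5*, both lower in cKO. The part of these stages in the values of *Pcsk4* was not tested.

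Without the replicate block the other marker lists held no called gene. With it edgeR called *Dmc1* of early meiotic prophase, higher in cKO. The 8 markers of early meiotic prophase had a median log2 fold change of 0.03, with 4 lower and 4 higher, and a sum of 915.8 to 1432 TPM in control and 948.8 to 1149 TPM in cKO samples. All 8 markers of spermatogonia had positive values, from 0.14 to 0.34, with a sum of 889.9 to 1061 TPM in control and 1023 to 1239 TPM in cKO. The 8 Sertoli markers had a median of 0.06. Lists of 4 or 5 markers had medians of 0.02 for Leydig cells, 0.17 for peritubular myoid cells, -0.17 for endothelial cells, 0.06 for macrophages and 0.13 for erythroid cells. EdgeR and DESeq2 called 0 genes in each of these 8 lists, in which *Stra8*, a gene of meiotic entry, and *Csf1r*, a macrophage receptor, were the only genes with an unadjusted p under 0.05 in edgeR, both positive.

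**Figure D5:**
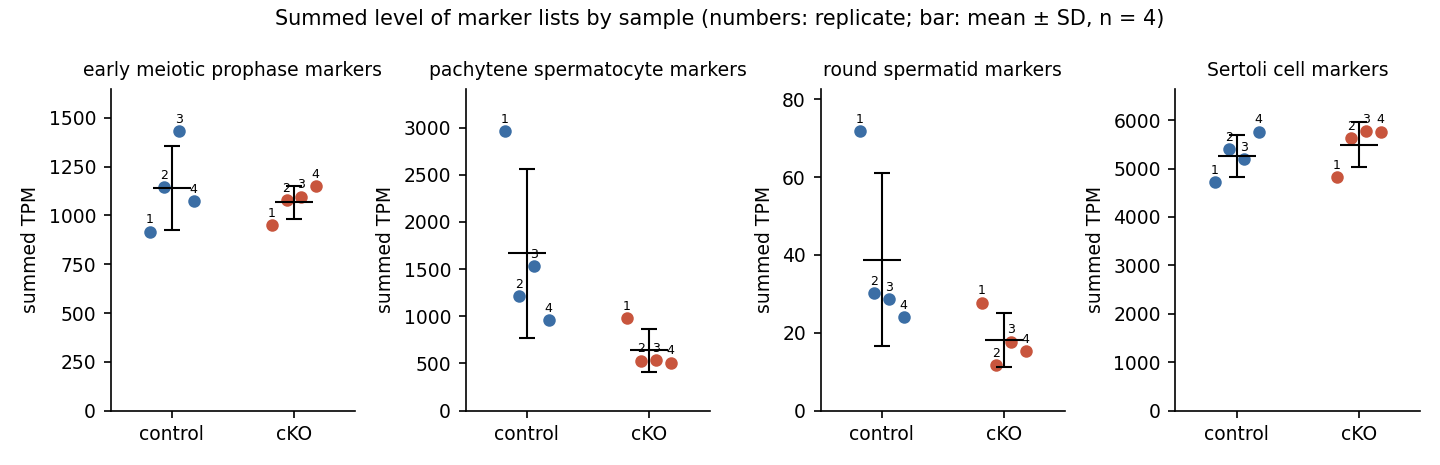
Summed TPM (vertical axes, from 0) of 8 markers each of early meiotic prophase, pachytene spermatocytes, round spermatids and Sertoli cells in 4 control and 4 cKO samples. Points are samples numbered by replicate and bars are mean ± SD. Pachytene and spermatid sums were highest in replicate 1 of each genotype and mostly lower in cKO, while the groups of the other lists overlapped widely.

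Without the replicate block, the rest of the pathway around the convertases showed no called gene in either direction. *Tpp2*, a cytosolic subtilisin-like peptidase outside the 8, was at 199.9 ± 17.4 and 196 ± 10.7 CPM (SD, n = 4 each) in control and cKO.
Among 5 inhibitors or helpers of convertases, 4 were tested and 0 were called by edgeR or DESeq2, with 0 at an unadjusted p under 0.05. *Pcsk1n*, which encodes the inhibitor proSAAS, was by far the highest of them at 182.4 ± 15.6 CPM in control and 199.6 ± 19.1 CPM in cKO (SD, n = 4 each). Its known target *Pcsk1* was at or below 5 counts in every sample.
The 6 genes that trim peptides or modify their ends all had positive log2 fold changes, from 0.04 to 0.24 (median 0.22, against 0.01 over all genes). *Cpe*, a carboxypeptidase that removes the basic residues, was at 681.7 ± 24.9 and 730.8 ± 40.6 CPM. *Qpct*, which forms pyroglutamate at peptide ends, was at 158.6 to 174.8 CPM in control and 188.9 to 202.1 CPM in cKO samples, with the groups apart (log2 fold change 0.22 with a standard error of 0.06, adjusted p = 0.34 from edgeR). It was the single gene of the 6 with an unadjusted p under 0.05 in edgeR, and DESeq2 called 0. With the replicate block edgeR called *Qpct*, higher in cKO.

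Partners and substrates of MBTPS1 held no called gene. All 15 listed genes were tested, 10 with positive and 5 with negative log2 fold changes, between -0.30 and 0.27 (median 0.05). EdgeR and DESeq2 called 0 of them, and 0 had an unadjusted p under 0.05. *Mbtps2*, the protease that makes the second cut, was at 22.7 ± 1.73 and 25.3 ± 2.46 CPM, and *Scap*, which escorts the sterol-sensing factors to the Golgi, at 208.7 ± 7.22 and 215.8 ± 15.5 CPM (SD, n = 4 each). Of the factors released by these cuts, *Srebf2* was at 185.6 ± 19.8 and 201 ± 1.53 CPM, and *Creb3* at 103.3 ± 13.6 and 114.5 ± 4.89 CPM. *Insig1*, which retains SCAP in the endoplasmic reticulum, had the largest positive value of the list, 0.27 (adjusted p = 0.57 from edgeR).

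Precursors that convertases cut showed the widest range of the pathway lists. Of 26 listed precursors 21 were tested, and edgeR and DESeq2 called 0 of them, with 0 at an unadjusted p under 0.05 in edgeR. With the replicate block edgeR called *Adam2* and *Adam5*, both lower in cKO. The median log2 fold change of the 21 was 0.05, with 14 positive and 7 negative values. The 3 lowest were *Adam2*, *Adam3* and *Adam5*, which encode proteins of the sperm surface made with a prodomain. *Adam2* was at 144.7, 38.9, 73.8 and 31.0 CPM in control and 48.3, 14.6, 17.7 and 13.1 CPM in cKO replicates 1 to 4. Replicate 1 was again the highest in both genotypes, and the groups overlapped (log2 fold change -1.62 with a standard error of 0.67, adjusted p = 0.56 from edgeR). *Adam3* and *Adam5* had log2 fold changes of -1.999 and -2.08 with larger standard errors, 1.52 and 1.19. The 4 precursors with the highest TPM were *Amh*, the anti-Müllerian hormone made by Sertoli cells (log2 fold change -0.04), *Lrp1*, an endocytic receptor (0.09), *Mmp14*, a membrane-bound metalloproteinase (0.11), and *Inhbb*, a subunit of inhibin B (0.01).

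Genes most like *Pcsk4* were ranked by Pearson's r of log2 CPM over the 8 samples, among all genes tested. The 10 highest were *Gstt2* (r = 0.992), *Gm35339* (0.981), *Cfap74* (0.981), *Catsperg2* (0.980), *Ak7* (0.979), *Cbl* (0.976), *Adad2* (0.975), *Cfap65* (0.973), *Ptpn20* (0.972) and *1700009C05Rik* (0.971). Since *Pcsk4* separates the genotypes, genes near the top of this ranking do so too, and in all 10 the highest cKO sample lay below the lowest control. They share the 8 libraries, and no p is given. *Gstt2*, a glutathione transferase, was at 54.2, 30.3, 44.7 and 31.5 CPM in control and 16.3, 13.3, 13.8 and 16.6 CPM in cKO replicates 1 to 4, in which control replicates 1 and 3 were also the high pair. *Cbl*, a ubiquitin ligase of receptor signaling, differed far less in size, from 183.2 ± 10.97 CPM in control to 148.7 ± 6.99 CPM in cKO (SD, n = 4 each, log2 fold change -0.30), and *1700009C05Rik* was at no more than 1.45 CPM in any sample. Ranked on deviations from the genotype means alone, *Gstt2* had r = 0.960 with *Pcsk4*, and the 5 highest genes were *Ndufc1* (0.992), *Rapgef6* (0.988), *Amigo1* (0.986), *Ube2e3* (0.984) and *Lrrc49* (0.980), none of them among the first 10.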

How the data were processed

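Germ cell RNA of 8 mice was sequenced by the authors from non-stranded polyA libraries with paired reads of 150 bp. Per the methods and the submitters' processing notes, reads were aligned to GRCm39 with STAR 2.7.9a and quantified with RSEM 1.3.3 on Ensembl release 105. The authors deposited RSEM expected counts, not normalized between samples, and TPM values, scaled within each library for effective length. A sample's 2 columns were matched by its letter label, and 0 columns belonged to other samples. Expected counts were rounded to whole numbers for testing.

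Genes reaching a TPM of 1 in any sample were tested with edgeR 4.0.16 (TMM, robust quasi-likelihood F-test, no covariate, all 8 samples), with Benjamini-Hochberg adjustment over all genes and a threshold of 0.05. Standard errors and 95% intervals come from the F statistic. Alternatives used DESeq2 1.42.0, limma 3.58.1, other scalings and filters, a replicate block and fewer samples. The tests were tried on simulated counts. Levels of different genes were ordered by median TPM. The exact paired permutation test planned for neighbours in that order is not printed, since the order was set on the same samples. GENCODE mouse release 39 gave positions and transcripts and holds 20075 of the 20187 tested genes. Each mouse is a separate sample, and n counts mice.

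The members and lists were chosen with earlier results of these data known. Named were the members, *Mgat2*, genes overlapping a member, the neighbours of *Pcsk4*, the 10 genes most like *Pcsk4* over all samples and 5 over deviations, called genes of pathway lists and otherwise up to 4 per list by TPM, and markers. The list genes *Insig1*, *Mbtps2*, *Adam2*, *Adam3* and *Adam5* fall outside this rule and were picked with their values in view. A listed gene is not reported here.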

Additional observations from a re-analysis of the deposited data

Results flagged for a closer look

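A sample standing far from the others of its group was looked for in the 8 convertases and both genotypes, 16 groups of 4 samples, where chance flags about 1 in 20 groups. Such a sample was found 2 times. *Pcsk7* was at 51.5 CPM in control replicate 4, with the other control samples between 59.1 and 60.4 CPM, and the gap was 0.857 of the range of the group. *Pcsk6* was at 50.8 CPM in cKO replicate 3, with the other cKO samples between 37.3 and 38.6 CPM, and the gap was 0.906 of the range.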

How the results depend on the processing

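Over 8 planned settings the log2 fold change of *Pcsk4* was between -1.37 and -1.34, and between -1.44 and -1.26 with any 1 sample left out. It was called in 6 of those 8 settings, all but filterByExpr and limma-voom, and in 4 of the 8 fits with a sample left out, the exceptions being those without control replicate 3, cKO replicate 2, cKO replicate 3 and cKO replicate 4. These are descriptions, since *Pcsk4* was chosen for this difference. The other 5 convertases were called in no setting. With 1 sample left out, *Furin* ran from -0.016 (without control replicate 3) to 0.085, *Pcsk6* from -0.083 (without cKO replicate 3) to 0.081, and *Pcsk5* from -0.237 to 0.041, with the sign turned without control replicate 2 (0.013) or cKO replicate 1 (0.041).
The count of called genes, 8, depended on the setting. It was 302 with DESeq2, 17 with library totals alone, 35 without the TPM filter, 0 with filterByExpr (1665 at an unadjusted p under 0.05) and 0 with limma-voom (2030), and from 0 to 32 with 1 sample left out. Chosen after seeing the data, leaving out replicate 1 of both genotypes gave 855. The replicate block gave 1464 of 20187 with edgeR and 1223 with DESeq2. Some listed genes that edgeR did not call without the block were called by edgeR with it. Lower in cKO were *Piwil1*, *Ldhc*, *Hspa2* and *Pgk2* (pachytene), *Acr* and *Dbil5* (spermatid), and *Adam2* and *Adam5* (precursors). *Qpct* and *Dmc1* were higher. DESeq2 with the block also called *Ybx2* and *Adam3*, both lower in cKO, and did not call *Dbil5*. Replicate numbers pair no mice in the labels. The deviations of same-numbered samples had r = 0.535, 0.145, 0.039 and 0.197, and 4 of 8 samples were closest to their own number. The 12 other pairs had a mean of -0.068 and ran from -0.351 to 0.196, so only the pair of replicate 1 stood apart. The order of levels and the share of *Pcsk4* (-4.65 percentage points) changed by less than the replicate spread or 1.5-fold in the settings tried. Counts of 3 or fewer limit *Pcsk1* and *Pcsk2*.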
